A study of Mus musculus with 4 samples.

Results

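Long position-named transcribed intervals are stretches of the mouse genome that the array design names by place alone, as a chromosome, a start, an end and a strand on build mm9, with no gene name attached. Members were the non-control probes whose interval spans at least 10000 bases and carries a strand. There were 9577 such probes, each with 1 spot on every array, of 55681 non-control probes in all. They lie in 2408 of the array's 4607 stranded position-named intervals, which are 1576 intervals when both strands are counted once. A further 6604 probes lie in shorter position-named intervals. The remaining 39500 probes are called not named by position below, although 13 of them have a position name without a strand. Interval lengths had quartiles of 15175, 24800 and 45428 bases.

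RNA came from sorted bone marrow LSK cells of C57BL/6 mice, the fraction that is lineage-negative, Sca-1-positive and Kit-positive and that holds blood stem and multipotent progenitor cells. The 4 arrays held 1 sample each: wild-type native and Sf3b1+/- native cells from mice 20 weeks old, and wild-type transplanted and Sf3b1+/- transplanted cells, taken 9 months after lethally irradiated hosts received total marrow of that genotype. Donor cells carried CD45.2 and hosts CD45.1, and donor LSK cells were sorted. The design text counts 4 native mice and 5 recipients, but the labels do not say how many mice entered an array. The Sf3b1+/- animals carried 1 null allele, and the labels name no promoter or Cre that would confine it to blood cells. Transplanted cells differed from native cells in host, irradiation and time together, which cannot be told apart. With 1 array a group, no difference between 2 groups has a replicate check.

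On arrays of this kind, position-named probes generally cover stretches thought to give rise to long intergenic noncoding RNAs. Such RNAs are transcribed by RNA polymerase II, are often spliced, are usually less abundant than messenger RNAs and are often restricted to a few cell types. Sf3b1 is a subunit of the U2 small nuclear ribonucleoprotein and takes part in the recognition of the branch point during splicing. A probe in such an interval reports RNA of 1 strand at 1 place in the interval, so several probes of an interval are separate looks at the same stretch and not replicates of a condition. Whether an interval lies in or beside an annotated gene was not examined, because no mm9 annotation was used here.

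Values below are processed signals of the scanner software, brought to the same 75th percentile on each array over probes well above background on all 4 arrays and given in the units of the wild-type native array. Differences are on the log2 scale. The call "well above background" was made spot by spot in the scanner software. The Sf3b1 probe read 362 units in native wild-type, 272 in native Sf3b1+/-, 226 in transplanted wild-type and 209.9 in transplanted Sf3b1+/- cells, a genotype difference of -0.41 and -0.11. The labels do not give the altered part of the gene, so this probe does not settle the genotype. The 7 LSK markers reported (Kit, Ly6a, Cd34, Flt3, Ptprc, Meis1 and Gata2) were all well above background on all 4 arrays. The 4 arrays shared 1 slide, and 47.7% to 51.5% of their non-control spots were well above background. Repeated spots of other probes had a median SD of 0.067 to 0.082 (log2) within an array. For such probes this makes the spot error of a difference 0.0979 to 0.111. Long probes have 1 spot each, so their own spot error was not measured.

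Of the 9577 long position-named probes, 2491 (26.0%) were well above background on all 4 arrays, against 44.4% of all non-control probes. The share was 25.3% for the shorter position-named intervals and 52.1% for probes not named by position. On none of the arrays were 6089 long probes (63.6%) well above background, and 997 (10.4%) were so on 1 to 3 arrays. By array, the count was 2765 in native wild-type, 2848 in native Sf3b1+/-, 3104 in transplanted wild-type and 3171 in transplanted Sf3b1+/- cells. Both transplanted arrays thus had more long probes above background than both native arrays, as they had for all probes, with 46.8%, 47.7%, 49.3% and 50.6% in the same order. The scanner software's looser call, positive and significantly above background, was met on all 4 arrays by 4425 long probes (46.2%). The 2491 compared probes had a median unscaled signal of 112 units, against 552.8 for compared probes not named by position. The long probes therefore lie nearer the background, where a fold is least well measured.

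**Figure D1:**
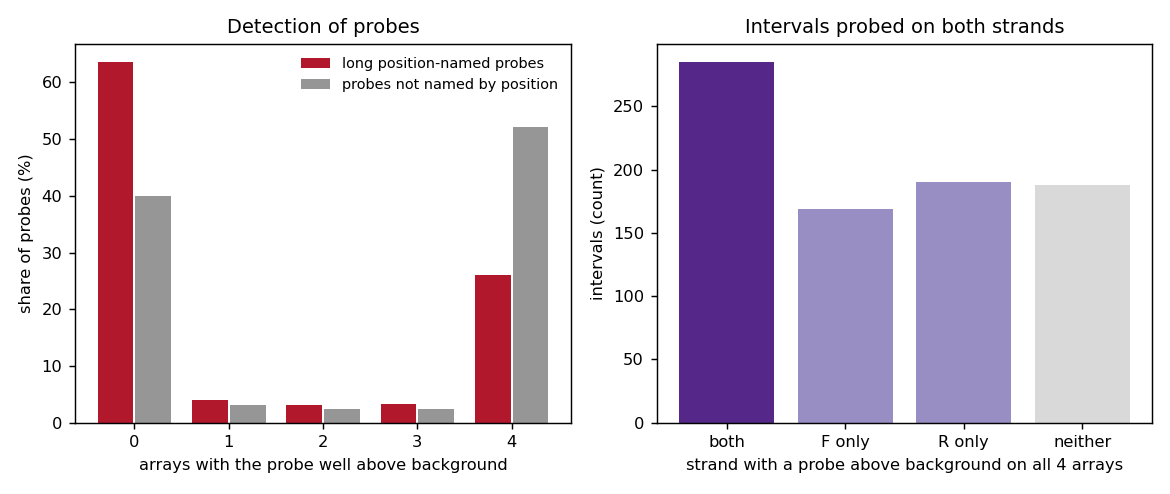
The left panel gives the share of probes (%) that were well above background on 0 to 4 arrays, in red for the 9577 long position-named probes and in grey for the 39500 probes not named by position. The right panel counts the 832 long intervals probed on both strands by the strand on which a probe was above background on all 4 arrays: 285 on both, 169 on F alone, 190 on R alone and 188 on neither.

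At least 1 probe was compared in 1256 of the 2408 stranded intervals (52.2%). Among the 2023 stranded intervals with 2 or more probes, 893 had no probe above background on all 4 arrays, 969 had some and 161 had every probe. Of 734 intervals with 5 probes, 321 had none, 214 exactly 1 and 40 all 5. Of 122 intervals with 10 probes, 24 had none, 31 at least 5 and 3 all 10. Of the intervals with 2 or more probes, 47.9% thus had some probes above background on all 4 arrays and others not. A probe that missed this call may have met the looser one, so the pattern does not show where RNA was absent. Of 832 intervals probed on both strands, 285 had compared probes on both strands, 359 on 1 strand alone (169 on F and 190 on R) and 188 on neither. The other 744 intervals were probed on 1 strand alone. Per probe, 24.5% of F probes (1174 of 4797) and 27.6% of R probes (1317 of 4780) were compared. The share ran from 20.2% of probes on chromosome 18 to 33.3% on chromosome 14, and was 27.0% on X. It was 26.4% for intervals of 10000 to 20000 bases and 23.0% for those of 100000 bases or more, with no steady order between.

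In native cells the 2491 compared long probes had a median genotype difference, Sf3b1+/- minus wild type, of -0.11 (SD over probes 0.32), and 66.9% were below 0. At least 1.5-fold higher were 55 (2.21%), against 2.31% of all compared probes, and at least 1.5-fold lower were 153 (6.14%), against 4.42%. In transplanted cells the median was -0.29 (SD over probes 0.39), and 78.8% were below 0. There 44 long probes (1.77%) were at least 1.5-fold higher, against 5.63% of all compared probes, and 492 (19.8%) were at least 1.5-fold lower, against 9.53%. At 2-fold the counts were 5 higher and 22 lower in native, and 4 higher and 74 lower in transplanted cells. Over all 24731 compared probes they were 111 higher and 201 lower in native, and 273 higher and 363 lower in transplanted cells. The long probes thus lay mostly on the lower side in the Sf3b1+/- sample of each setting, and in transplanted cells a larger share of them passed the limit downward than of all compared probes. These signs are relative to the 75th percentile: scaled on the spike-in transcripts, the median of all compared probes moved from -0.04 to 0.18 in native and from -0.08 to 0.51 in transplanted cells, and the counts became 150 higher and 53 lower in native and 543 higher and 32 lower in transplanted cells. Quantile normalization gave 74 higher and 119 lower in native cells, and the normexp background correction 4 and 32. Under each of these scalings the long probes' median minus that of all compared probes was -0.08 or -0.07 in native and -0.21 or -0.20 in transplanted cells. The percentile and spike-in scalings each shift a whole array by 1 constant, so this gap was bound to be equal under both. Only quantile normalization and normexp could change it, and it was then -0.08 and -0.07 in native and -0.20 under both in transplanted cells.

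Several other classes of probe also had a lower median. Shorter position-named intervals had a native median of -0.12 and a transplanted one of -0.30. Probes of RefSeq noncoding transcripts had -0.12 and -0.23, cDNA clones with AK accessions -0.11 and -0.29, and Ensembl transcript probes -0.10 and -0.20. Probes of RefSeq messenger RNAs had 0.00 and 0.01. The share at least 1.5-fold lower in transplanted cells was 22.8% for shorter position-named probes and 20.6% for AK clones, against 19.8% for long probes. It was 13.7% for RefSeq noncoding, 14.7% for Ensembl and 5.34% for RefSeq messenger probes. In native cells these shares were 10.5% and 9.96%, against 6.14%, and then 5.02%, 5.75% and 3.31%. Named noncoding RNAs, a list of 33 of which 14 had a probe above background on all 4 arrays, had medians of -0.19 and -0.20, with 3 lower by 1.5-fold in native and 2 in transplanted cells. In transplanted cells the gap was present from dim to bright probes. There, long probes with a mean signal under 50 units had a median of -0.31, and those of 1000 units or more -0.33, against -0.14 and -0.06 for probes not named by position in the same ranges. In native cells the gap was small among dim probes, with -0.13 under 50 units against -0.10. The long probes' shift was also alike at all lengths, from -0.26 to -0.33 in transplanted cells over 4 length classes, and on every chromosome probed, whose medians ran from -0.37 to -0.19.

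**Figure D2:**
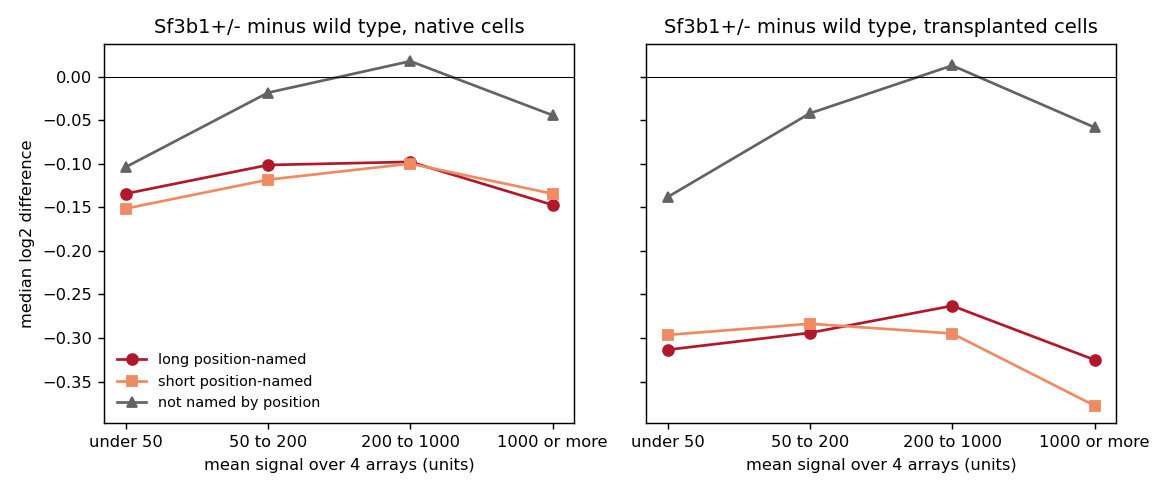
Median log2 genotype difference (vertical axis) in 4 ranges of mean unscaled signal (horizontal axis, units), for long position-named probes (red circles), shorter position-named probes (orange squares) and probes not named by position (grey triangles), in native (left) and transplanted cells (right). In transplanted cells the long probes sit between -0.33 and -0.26 in all 4 ranges and probes not named by position between -0.14 and 0.01.

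Markers of other cells moved with the same contrasts, and their part in the values above was not tested. The 6 B-cell markers reported, of which Cd79a, Ms4a1 and Pax5 were above background on neither transplanted array, summed to 13704, 5323, 4134 and 3697 units in native wild-type, native Sf3b1+/-, transplanted wild-type and transplanted Sf3b1+/- cells. The 7 probed neutrophil and macrophage markers summed to 23473, 21769, 31599 and 20894, the 5 megakaryocyte markers to 19610.0, 30934, 23682 and 41526, the 7 T and NK cell markers to 4562, 4807, 4883 and 3749.9, the 4 probed erythroid markers to 1983, 2474, 1859 and 2537 and the 5 mast cell, basophil and eosinophil markers to 3830.3, 4636, 5635 and 6623. By sum, B-cell markers were highest in wild-type native, neutrophil and macrophage markers in wild-type transplanted and megakaryocyte markers in Sf3b1+/- transplanted cells. Bright probes carried these sums: Pf4 alone gave 36597 of the 41526 units of megakaryocyte markers in Sf3b1+/- transplanted cells. Single markers did not all follow, since Ppbp and Gp1ba were highest in Sf3b1+/- native cells, Itgam in Sf3b1+/- native and Adgre1 in Sf3b1+/- transplanted cells. In sorted bulk samples, fewer cells of a type and less RNA per cell cannot be told apart.

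Both genotype differences, which share no array, were at least 1.5-fold lower for 73 long probes in 53 stranded intervals (2.93%, against 1.76% of all compared probes) and at least 1.5-fold higher for 5 (0.201%, against 0.558%). The 53 intervals form 51 loci once overlapping intervals of 1 strand are joined. By 1.5-fold, 10 long probes were higher in native but lower in transplanted Sf3b1+/- cells (against 0.166% of all compared probes), and the reverse held for 2 (against 0.202%). The 2 differences had the same sign for 1725 of 2491 long probes (69.2%), against 68.5% of all compared probes. Across the 2491 probes they had a Pearson's r of 0.355 and a Spearman's rho of 0.353, against 0.376 and 0.448 over all compared probes; probes are not independent replicates, and all share the 4 arrays.

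An interval's own probes gave a further reading, since 582 stranded intervals had 2 or more compared probes, 1817 in all. Within an interval the median SD of the probes' differences was 0.168 for genotype in native, 0.203 for genotype in transplanted, 0.203 for setting in wild-type and 0.206 for setting in Sf3b1+/- cells. The interval medians themselves had SDs of 0.274, 0.329, 0.364 and 0.368. The first SD was thus smaller than the second in each difference. The 2 are unlike statistics, a median over intervals with few probes each and 1 SD over 582 medians, so their sizes cannot be compared directly. The 2581 pairs of probes from the same interval and strand had an r of 0.389, 0.487, 0.580 and 0.508 in those 4 differences. For the 285 intervals compared on both strands, the r between the strands' medians was 0.014, 0.051, 0.211 and 0.255. Each of the 4 differences thus had a higher r between same-strand probes than between opposite strands, although the first is over single probes and the other over medians. All pairs of an interval were taken, so intervals with more compared probes weigh more. Whether same-strand probes overlap in sequence was not examined.

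**Figure D3:**
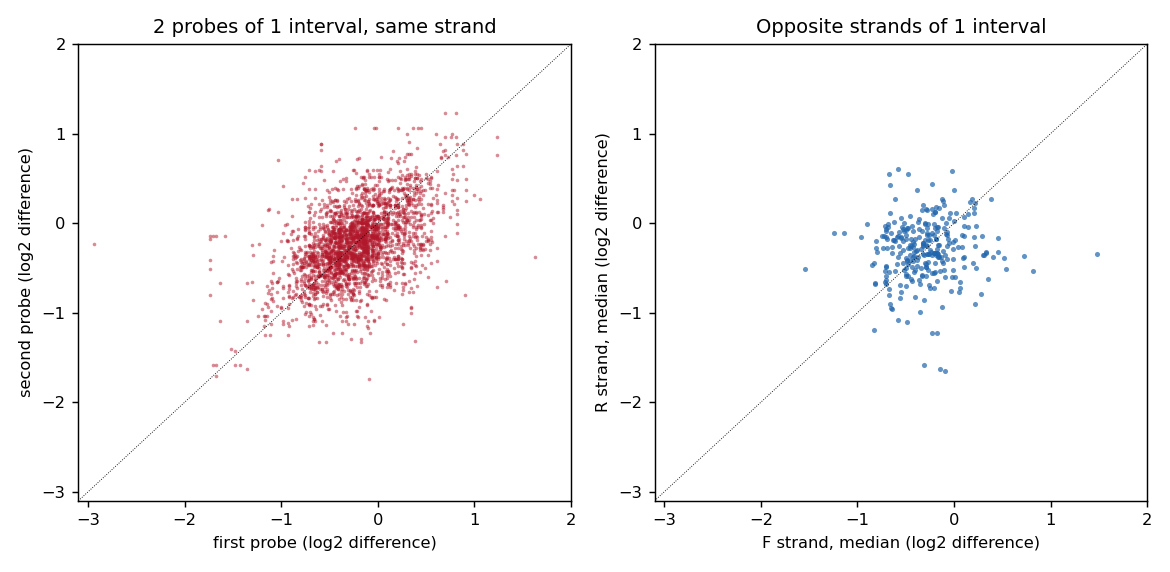
Log2 genotype differences in transplanted cells. The left panel sets 2 probes of the same interval and strand against each other (2581 pairs, r of 0.487); the right panel sets the F-strand median of an interval against its R-strand median (285 intervals, r of 0.051). Pairs on the same strand stretch along the dotted line of equality and opposite strands form a round cloud.

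Every compared probe of an interval was at least 1.5-fold lower in Sf3b1+/- cells in 9 of the 582 intervals in native (1.55%) and in 32 in transplanted cells (5.50%). Over all 1001 position-named intervals with 2 or more compared probes, long and short, the shares were 2.8% and 7.39%. Every probe was higher in 3 of the 582 in native (0.515%, against 0.999% of the 1001) and in 2 in transplanted cells (0.344%, against 0.699%). Between settings, every probe was higher in transplanted cells in 33 long intervals of wild-type cells (5.67%, against 5.49%) and 13 of Sf3b1+/- cells (2.23%, against 2.7%). Every probe was lower in 5 (0.859%, against 1.8%) and 14 (2.41%, against 4.9%). The loci described next were picked by the size of these differences, so their values are descriptions.

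Outside chromosome 18, whose intervals were counted and not named, the largest genotype difference shared by both settings was on chromosome 13. Interval chr13:108548345-108679004 on the R strand held 3 compared probes that were lower in both Sf3b1+/- samples. Probe A_30_P01019473 read 857 units in native wild-type, 175 in native Sf3b1+/-, 707 in transplanted wild-type and 221 in transplanted Sf3b1+/- cells, a difference of -2.29 (native) and -1.68 (transplanted). Probe A_30_P01020815 read 170.0 units in native wild-type, 30.1 in native Sf3b1+/-, 154 in transplanted wild-type and 47.5 in transplanted Sf3b1+/- cells, a difference of -2.50 (native) and -1.70 (transplanted). Probe A_30_P01023333 read 156, 59.6, 146 and 48.9 units in the same order, with differences of -1.39 (native) and -1.58 (transplanted). For each of these 3 probes both Sf3b1+/- values lay below both wild-type values. A further probe of the interval, A_30_P01031432, was well above background in both wild-type samples and in neither Sf3b1+/- sample, and was at least 3.45-fold lower in native and at least 4.16-fold lower in transplanted Sf3b1+/- cells. The overlapping interval chr13:108577843-108679708 on the R strand had 2 compared probes, at -1.15 (native) and -0.78 (transplanted) and at -1.43 (native) and -0.88 (transplanted). One probe of the first interval did not follow: A_30_P01023760 read 35913, 31038, 37688 and 33995 units, differences of -0.21 (native) and -0.15 (transplanted), inside the 1.5-fold limit in both settings. Of the 9 probes of the 2 intervals, 6 were compared, and 5 of these were at least 1.5-fold lower in both settings. Where the probes lie relative to each other was not examined. With limma and Benjamini-Hochberg adjustment, the genotype term of the first 3 probes had adjusted p-values of 0.0916, 0.0916 and 0.0916, which do not pass 0.05.

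Interval chr2:157361470-157379813 on the R strand had 4 of 10 probes compared. Probe A_30_P01025548 read 50.2 units in native wild-type, 18.1 in native Sf3b1+/-, 94.2 in transplanted wild-type and 30.4 in transplanted Sf3b1+/- cells, a difference of -1.47 (native) and -1.63 (transplanted). Probes A_30_P01021865 and A_30_P01029124 differed by -0.88 (native) and -1.35 (transplanted) and by -1.31 (native) and -1.09 (transplanted), and probe A_30_P01031799 by -0.13 (native) and -0.66 (transplanted). The native median was -1.09 and the transplanted one -1.22. In both genotypes the transplanted sample read above the native sample of the same genotype at all 4 probes, so wild-type transplanted cells were the highest of the 4 groups and Sf3b1+/- native cells the lowest. After the normexp background correction the setting median in Sf3b1+/- cells turned from 0.64 to -0.037.

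On chromosome 5, chr5:22887983-22939658 on the R strand had all 3 of its probes lower in both settings, with medians of -0.80 and -1.12. Probe A_30_P01027135 read 224 units in native wild-type, 128 in native Sf3b1+/-, 416 in transplanted wild-type and 191 in transplanted Sf3b1+/- cells. The interval chr5:22890322-22939119 on the R strand, which lies within it, had medians of -0.64 and -1.11 over 3 probes that spanned -1.12 to -0.99 in transplanted cells. A longer interval over the same stretch and strand, chr5:22801058-22939737, gave another pattern: its 4 compared probes were at 0.36 to 0.51 in native and -0.99 to -0.33 in transplanted cells, above 0 in the first setting and below 0 in the other. Probe A_30_P01026443 of that interval read 159 units in native wild-type, 223 in native Sf3b1+/-, 217 in transplanted wild-type and 133 in transplanted Sf3b1+/- cells. Probes assigned to overlapping intervals of 1 strand thus had opposite signs in native cells.

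**Figure D4:**
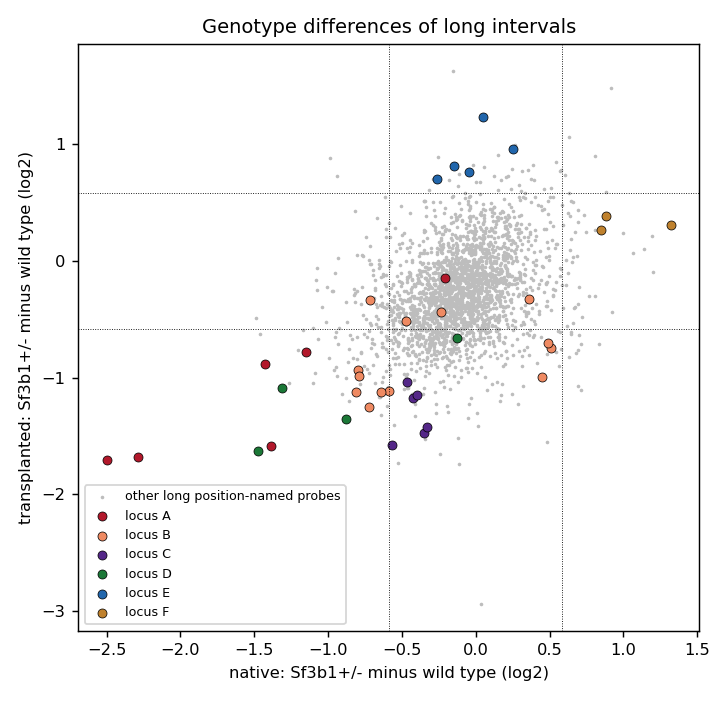
Each point is 1 of 2491 long position-named probes, with its log2 genotype difference in native cells (horizontal axis) and in transplanted cells (vertical axis); dotted lines mark 1.5-fold. Coloured points are the compared probes of 6 loci: A is the chromosome 13 pair of intervals with 6 compared probes, B the chromosome 5 stretch with 13, C the chromosome 8 pair with 6, D the chromosome 2 interval with 4, E the chromosome 10 interval with 5 and F the chromosome 1 interval with 3. Locus A reaches -2.50 and -1.70, and locus E sits above the upper line in transplanted cells alone.

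Further intervals with 3 or more compared probes had medians beyond 1.5-fold lower in both settings. Interval chrX:47890565-47915775 on the F strand had 3 compared probes with medians of -0.65 and -1.08, and its median signals were 169, 104, 188 and 102 units in native wild-type, native Sf3b1+/-, transplanted wild-type and transplanted Sf3b1+/- cells. Interval chr13:70762342-70776512 on the R strand had 3, with -0.68 and -0.93. Interval chr1:69531191-69570566 on the R strand had 4, with -0.81 and -0.72, and its signal was also lower in transplanted than in native cells of both genotypes (-0.65 and -0.56). Intervals chr4:44181997-44249172 on the R strand and chr12:82495575-82516300 on the F strand with 2 compared probes each were lower by both probes in native cells, with medians of -1.33 and -0.82, and had transplanted medians of -0.69 and -0.56. Single compared probes lower in both settings included chr4:128060015-128075590 on the R strand (-1.10 native and -1.04 transplanted), chr2:127988295-128194920 on the R strand (-1.27 native and -1.04 transplanted) and chr6:133054025-133069850 on the R strand (-1.09 native and -0.96 transplanted).

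Other intervals had larger differences in transplanted than in native cells. Neighbouring intervals chr8:82854412-82919089 on the R strand and chr8:82836971-82849309 on the R strand had 3 compared probes each, with transplanted medians of -1.48 and -1.15 and native medians of -0.35 and -0.42. Probe A_30_P01029486 of the second read 675 units in native wild-type, 513 in native Sf3b1+/-, 1045 in transplanted wild-type and 470.4 in transplanted Sf3b1+/- cells, so wild-type transplanted cells stood above the other 3 groups and Sf3b1+/- transplanted cells below them. Interval chr10:120058696-120076196 on the R strand had 2 compared probes with a transplanted median of -1.46 and a native median of -0.34. Interval chr13:28551902-28975446 on the R strand had all 3 probes lower in transplanted Sf3b1+/- cells (median -1.17), and its native median of -0.63 was past 1.5-fold too. Probe A_30_P01018833 there read 945 units in native wild-type, 601 in native Sf3b1+/-, 531 in transplanted wild-type and 236 in transplanted Sf3b1+/- cells, and the setting differences of the interval were -0.83 in wild-type and -1.35 in Sf3b1+/- cells. Its 7 compared neighbours in overlapping intervals of the same strand were between -0.61 and 0.01 in native and between -0.37 and -0.08 in transplanted cells. Whether the difference between settings exceeds the spread between samples was not tested for any of these intervals.

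The largest single difference outside chromosome 18 was not shared within its interval. Probe A_30_P01028020 in chr6:90915489-90940052 on the R strand read 8779 units in native wild-type, 9002 in native Sf3b1+/-, 44298 in transplanted wild-type and 5773 in transplanted Sf3b1+/- cells, a transplanted difference of -2.94. The interval's other compared probe, A_30_P01029584, read 212, 196, 364 and 310.5 units, a difference of -0.23. Both probes were highest in wild-type transplanted cells, and 1 of the 2 passed the limit by genotype. Single compared probes chr16:4525147-4542122 on the R strand and chr6:145647711-145756861 on the F strand were likewise highest in wild-type transplanted cells, at 399.9, 370.1, 1060.0 and 317 units and at 553, 384, 1328 and 399 units, with transplanted differences of -1.74 and -1.73.

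Higher signal in Sf3b1+/- cells was rarer. Both intervals in which every probe was higher in transplanted cells were named after their values were seen. In chr10:117021051-117038683 on the F strand all 5 probes were compared, and all 5 were higher in transplanted Sf3b1+/- cells, with a median of 0.81 and a range of 0.70 to 1.23. In native cells the same probes ran from -0.26 to 0.25. Probe A_30_P01029964 read 156 units in native wild-type, 185 in native Sf3b1+/-, 177 in transplanted wild-type and 344 in transplanted Sf3b1+/- cells. The Sf3b1+/- transplanted sample was the highest of the 4 at every probe of the interval. In chr2:155269145-155303251 on the F strand, 3 of 10 probes were compared and ran from 0.65 to 0.74 in transplanted and from 0.12 to 0.60 in native cells. Of the 5 single probes higher in both settings, chr15:98842850-98853100 on the F strand had the largest differences (0.92 native and 1.48 transplanted) and read 52.5, 99.1, 44.4 and 124 units. It was followed by chr3:146515333-146557069 on the F strand (0.81 native and 0.90 transplanted), chr16:90038086-90127636 on the R strand (0.63 native and 1.06 transplanted) and chr19:5771425-5848475 on the F strand (0.88 native and 0.59 transplanted). The fifth lies in the chromosome 2 interval just named (0.60 native and 0.74 transplanted).

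In native cells every compared probe was higher in Sf3b1+/- cells in chr10:82074600-82085425 on the F strand (2 probes, median 1.16), chr17:84470764-84486339 on the R strand (2 probes, 0.96) and chr1:85117750-85129200 on the F strand (3 probes, 0.88). Their transplanted medians were 0.16, -0.29 and 0.31, all inside the 1.5-fold limit. The first read 84.1, 188, 95.6 and 106.7 units by median in native wild-type, native Sf3b1+/-, transplanted wild-type and transplanted Sf3b1+/- cells, and Sf3b1+/- native cells alone stood out. A single compared probe, chr17:88466300-88495175 on the R strand, read 255 units in native wild-type, 229.7 in native Sf3b1+/-, 264 in transplanted wild-type and 818 in transplanted Sf3b1+/- cells, a transplanted difference of 1.63 against -0.15 in native cells.

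**Figure D5:**
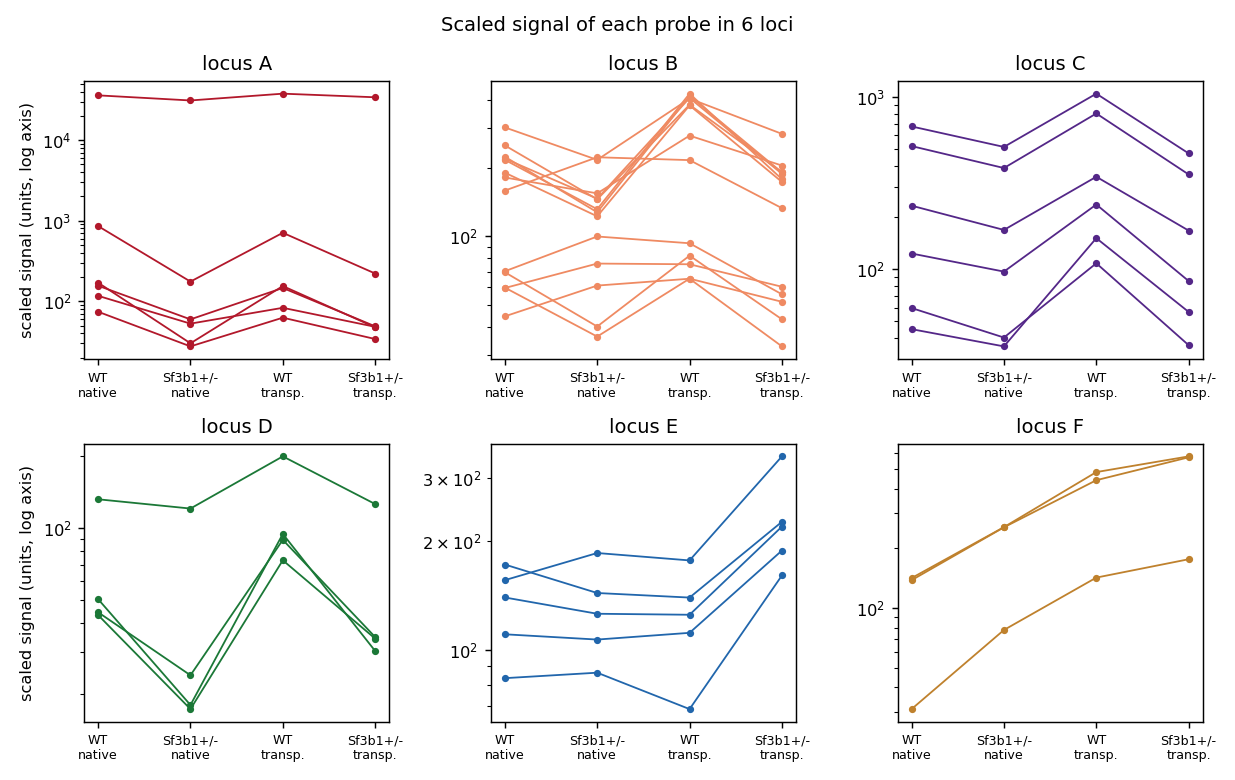
Scaled signal (units, log axis, a separate scale in each panel) of every compared probe in 6 loci, 1 line per probe, in native wild-type, native Sf3b1+/-, transplanted wild-type and transplanted Sf3b1+/- cells, 1 array each. In locus A, on chromosome 13, 5 lines are lower in both Sf3b1+/- samples and the top line stays level; in locus E, on chromosome 10, all 5 lines are highest in Sf3b1+/- transplanted cells; in locus F, on chromosome 1, all 3 lines are higher in transplanted than in native cells.

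Between settings, transplanted minus native, the long probes had a median of 0.12 in wild-type cells, with 306 probes (12.3%) at least 1.5-fold higher, against 8.01% of all compared probes, and 96 (3.85%) lower, against 4.72%. In Sf3b1+/- cells the median was -0.03, with 195 (7.83%) higher, against 9.7%, and 210 (8.43%) lower, against 7.41%. Scaled on the spike-in transcripts these counts became 1135 higher and 6 lower in wild-type and 1697 higher and 2 lower in Sf3b1+/- cells, since the median of all compared probes then moved to 0.47 and 0.80. Quantile normalization gave 236 higher and 128 lower in wild-type cells, and 159 higher and 250 lower in Sf3b1+/- cells. The normexp correction gave 83 higher and 36 lower in wild-type cells, and 51 higher and 136 lower in Sf3b1+/- cells.

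With limma's additive fit and Benjamini-Hochberg adjustment over 24731 probes, 64 long probes rose and 28 fell with transplantation, 2.57% and 1.12% of the 2491, against 2.33% and 1.12% of all compared probes. The fit has 1 residual degree of freedom per probe, and its error is the departure of the genotype differences from each other, not a spread between animals. The 92 calls became 19 with the percentile taken over all probes, 0 after quantile normalization and 196 after the normexp correction. Over all 24731 compared probes the 855 calls became 234, 0 and 3147 in the same order. Interval chr1:85117750-85129200 on the F strand rose at all 3 compared probes, by 1.77 (median) in wild-type and 1.18 in Sf3b1+/- cells. Probe A_30_P01027577 there read 138 units in native wild-type, 255 in native Sf3b1+/-, 440.4 in transplanted wild-type and 574 in transplanted Sf3b1+/- cells, with an adjusted p of 0.024 (limma). Interval chr7:99879368-99889978 on the F strand rose at 3 of 3 compared probes out of 10, with medians of 1.27 and 1.44. Interval chr11:19950950-19962250 on the R strand fell at both compared probes, with medians of -1.33 and -1.19. Probe A_30_P01030473 of it read 118 units in native wild-type, 79.2 in native Sf3b1+/-, 42.3 in transplanted wild-type and 31.3 in transplanted Sf3b1+/- cells.

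Interval chr4:126710640-126721240 on the R strand had medians of 1.69 in wild-type and 0.90 in Sf3b1+/- cells over 3 of 10 probes, chr17:22076711-22099431 on the R strand 1.05 and 1.21 over 3 of 3, and chr2:22782700-22801900 on the R strand -1.08 and -1.21 over 2 of 5. An interval singled out after its values were seen, chr17:39960567-39992817 on the R strand, had all 5 probes compared and all 5 lower in transplanted cells of both genotypes, with medians of -0.78 and -0.96. Its probe A_30_P01018010 read 5828 units in native wild-type, 4149 in native Sf3b1+/-, 3619 in transplanted wild-type and 2129.6 in transplanted Sf3b1+/- cells. The genotype medians of the same 5 probes were -0.49 in native and -0.77 in transplanted cells, so the order of the groups was the same at each probe, from wild-type native down to Sf3b1+/- transplanted.

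Some long probes were above background in 1 genotype or 1 setting alone, where a fold is only a lower bound, taken against the higher of the probe's own signal and the lowest signal called well above background on the other array. Both transplanted arrays and neither native array detected 166 long probes (1.73%, against 1.44% of all non-control probes), and both native arrays alone 17 (0.178%, against 0.201%). Both Sf3b1+/- arrays alone detected 47 (0.491%, against 0.465%), and both wild-type arrays alone 21 (0.219%, against 0.176%). The bound was above 1-fold for 132 of the 166, all 17, 31 of the 47 and all 21. The other probes carry no fold. The lowest scaled signal called well above background (log2) was -6.38 in native wild-type and -6.59 in native Sf3b1+/- cells. It was -6.59 in transplanted wild-type and -6.93 in transplanted Sf3b1+/- cells, so the arrays' limits were unequal. Probe A_30_P01017570 in chr11:97457180-97487074 on the F strand read 69.3, 63.9, 4.62 and 3.79 units in native wild-type, native Sf3b1+/-, transplanted wild-type and transplanted Sf3b1+/- cells, and was at least 4.05-fold higher in native wild-type and at least 4.72-fold higher in native Sf3b1+/- cells. Probe A_30_P01019267 in chr4:136856064-136875614 on the R strand read 16.9, 6.69, 59.9 and 75.9 units and was at least 3.02-fold and 4.43-fold higher in transplanted cells. Probe A_30_P01022934 in chr3:131128972-131163308 on the R strand read 48.0, 3.96, 47.8 and 15.5 units and was at least 2.80-fold and 3.08-fold lower in Sf3b1+/- cells. Of the probes seen in Sf3b1+/- cells alone, A_30_P01032146 in chr6:47687025-47728525 on the F strand ranked first by the smaller of its bounds, at least 1.68-fold (native) and 1.70-fold (transplanted).

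Among intervals with both strands compared, the strands could differ. In chr14:115423660-115463160, with 6 compared probes on each strand, the F-strand probes had a transplanted genotype median of -0.81 (range -1.15 to -0.11) and the R-strand probes -0.28 (range -0.63 to 0.37). In chr5:74487385-74497428 the setting difference of wild-type cells was 0.78 over 10 F probes and 0.37 over 4 R probes. In chr4:129497990-129515290 both strands read alike, with genotype medians of -0.10 and -0.14 in native and -0.19 and -0.18 in transplanted cells.

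The longest interval with a compared probe, chr3:34003359-34537330 on the F strand, had 1 of 3 probes compared, at 59.0, 52.4, 77.5 and 44.5 units in native wild-type, native Sf3b1+/-, transplanted wild-type and transplanted Sf3b1+/- cells and a transplanted difference of -0.80. The next, chr13:28477490-28985604, had 1 compared probe on each strand, at -0.40 on F and -0.18 on R. The longest member of all spans 7128486 bases and its only probe was above background on no array. Just inside the length limit, chr1:138528250-138538250 (10000 bases) had 6 of 10 F probes and 2 of 10 R probes compared, with transplanted genotype medians of -0.66 and -0.90. Just outside, chr11:102878974-102888924 (9950 bases) had 1 of 7 on each strand, at -0.04 on F and -0.07 on R.

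No long probe passed an adjusted p of 0.05 for the genotype term over both settings in limma with Benjamini-Hochberg adjustment, nor did any of the 24731 compared probes (0%). The lowest adjusted p was 0.0916. At an unadjusted p under 0.05 were 61 long probes higher and 549 lower (22.0%), against 5.54% higher and 11.5% lower of all compared probes. After the normexp background correction 94 of the 2491 long probes passed the adjusted test, 1 higher and 93 lower. So did 658 of all 24731 compared probes under that correction.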

How the data were processed

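RNA of 4 LSK samples was hybridised to 4 single-colour Cy3 arrays of Agilent design 028005. Per the file headers, the deposited intensity values were read with Feature Extraction 10.7.1.1 on build mm9, with background subtraction and detrending within each array and no scaling between arrays. The series table deposited by the authors holds ratio values, each the processed signal divided by a constant per array; it served as an alternative. Members, lists and named loci were chosen with earlier results of these data known.

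Here the log2 processed signal was shifted by each array's 75th percentile over 24731 probes well above background on all 4 arrays, and compared probes passed on all 4. Outlier-flagged spots were left out, and spots of a probe were averaged. The precision is limited by 1 array a group. An additive fit of genotype and setting used limma 3.58.1 in R 4.3.3 with Benjamini-Hochberg adjustment; tested on simulated data of 24731 probes for the genotype term, it recovered 41% of 2-fold and 97% of 4-fold changes. Calls had a 1.5-fold limit. Some markers of the LSK and B-cell lists are not reported here and were left out of the sums. Gene names came from RefSeq (GRCm38.p6), for names alone. Intervals on chromosome 18 were counted and not named, so rankings of named probes and intervals are over the other chromosomes. Named were the 5 highest and 5 lowest probes of each difference, the 8 leading probes shared by both settings in each direction, up to 10 agreeing intervals per difference, the 3 leading probes of each detection pattern, up to 5 intervals with both strands compared and the 3 longest; some of these are given only within counts. Alternatives were the percentile over all probes, quantile normalization, spike-in scaling, normexp (run on median signals, since mean signals were not used here), the deposited table, a filter of 2 arrays, a 20000-base limit and a 2-fold limit.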

Additional observations from a re-analysis of the deposited data

Results flagged for a closer look

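Several long probes were at least 1.5-fold higher in Sf3b1+/- cells of one setting and at least 1.5-fold lower in those of the other. The difference between the settings was not tested, since each sample has 1 array. The values here are the genotype difference (log2) in transplanted minus that in native cells, each of 1 probe, which need not stand for its interval's other probes.

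Among 10 probes that were higher in native but lower in transplanted Sf3b1+/- cells, 9 are named. The compared probe of chr1:63163023-63180223 (R) had -1.82. A probe of chr3:19179899-19216399 (R) had -1.45, while the median over the 6 compared probes of that strand was 0.17 native and -0.43 transplanted. The compared probe of chr4:105035450-105059250 (F) had -1.27. The compared probe of chr4:130039725-130069550 (F) had -1.25. A probe of chr8:126268510-126290810 (R) had -1.42, and the other compared probe there, A_30_P01022780, was at -0.83 native and -0.24 transplanted. The compared probe of chr12:70213282-70225157 (R) had -1.33. A probe of chr12:109603526-109647403 (R) had -1.47, and the other compared probe there, A_30_P01028526, was at -0.09 native and -0.26 transplanted. A probe of chr17:6265275-6362150 (R) had -1.45, and the other compared probe there, A_30_P01027121, passed the limit in neither setting (0.57 native and -0.06 transplanted). The compared probe of chrX:100688896-100701764 (F) had -1.54. The chromosome 1 probe read 25.1, 41.2, 34.9 and 16.2 units in native wild-type, native Sf3b1+/-, transplanted wild-type and transplanted Sf3b1+/- cells.

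The reverse held for 2 probes. A probe of chr8:124355710-124401160 (R) had 1.87 and read 73.8, 37.2, 41.6 and 76.7 units in the same order. At the other 4 compared probes there the native difference was inside the limit. A probe of chr14:73729977-73751877 (R) had 1.66 and read 99.6, 51.8, 30.7 and 50.7 units. The other 2 compared probes there were inside the limit in both settings. At the chromosome 14 probe the wild-type native sample stood above the other 3.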

How the results depend on the processing

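No paired analysis was possible because the groups share only replicate number 1. Leaving out a replicate was not possible either, with 1 array a group. Depth is not defined for arrays; signal near background limits the dimmest probes.

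The share of long probes past 1.5-fold was 8.35% for genotype in native cells and became 1.45% with normexp, 14.9% with the filter of 2 arrays and 1.08% at 2-fold. In transplanted cells it was 21.5%, and became 13.4% with normexp and 3.13% at 2-fold. For setting in wild-type cells 16.1% became 45.8% with spike-in scaling, 4.78% with normexp and 3.49% at 2-fold; in Sf3b1+/- cells 16.3% became 68.2%, 7.51% and 3.25%. Spike-in scaling turned the median of the genotype difference to 0.11 in native and 0.30 in transplanted cells and that of setting in Sf3b1+/- cells to 0.76, since it moves the median of all probes; the median for setting in wild-type cells became 0.55, and with normexp 0.0041, while normexp gave -0.20 in Sf3b1+/- cells. The share higher in both settings, 0.201%, became 0.442% with quantile normalization, 2.85% with spike-in scaling, 0% with normexp, 0.613% with the filter of 2 arrays and 0% at 2-fold. The share lower in both, 2.93%, became 0.241% with spike-in scaling, 0.803% with normexp and 0.281% at 2-fold. Intervals whose probes agree were 2.06%, 5.84%, 6.53% and 4.64% in the 4 differences and 0.515%, 2.75%, 1.20% and 1.72% with normexp; the second was 3.78% with quantile normalization. Detection of 26.0% became 46.2% with the looser call. In limma with Benjamini-Hochberg adjustment, 0 long probes passed for genotype (610 at an unadjusted p under 0.05), and 94 with normexp, against 658 of all fitted probes. For setting 92 passed, and 19 with the percentile over all probes, 0 with quantile normalization, 196 with normexp and 0 with the filter of 2 arrays. Over all fitted probes the setting calls were 855, 234, 0, 3147 and 0 in the same order. Apart from fewer probes tested or a stricter limit, the cause was not tested. The deposited table and the 20000-base limit kept the shares past 1.5-fold, the medians and the shares lower or higher in both settings near these values. Neither was run for limma or for intervals whose probes agree, and detection was recomputed at 20000 bases alone. Spike-in scaling was not run for limma either. For 32 intervals, 72 of their medians in the 4 differences were recomputed. The settings were the percentile over all probes, quantile normalization, spike-in scaling, normexp and the deposited table. Of the 72, 1 changed sign: the setting median of chr2:157361470-157379813 (R) in Sf3b1+/- cells was 0.64 and became -0.037 with normexp. The 72 do not cover every median of these intervals. Spike-in scaling adds 1 constant to a difference, and moved the transplanted genotype median of all compared probes from -0.08 to 0.51. It thus turns smaller negative medians outside the 72 positive, such as the transplanted genotype median of -0.29 of chr17:84470764-84486339 (R).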
